A study of Komagataella phaffii CBS 7435 with 16 samples.

Results

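Komagataella phaffii is a methylotrophic yeast used as a host for recombinant proteins. Described here are 56 of its genes that rose when oxygen supply was lowered and were still raised late. Their late mean stayed within a set bound of the early one. They were picked by their levels in 16 RNA-seq libraries from chemostat cultures, out of 5362 nuclear features whose identifiers end in t. Abundance is given as CPM, the estimated count of a feature after the counts of those 5362 features were scaled to a sum of 1000000 in each library. A feature was a member when its mean CPM, with 1 added, was at least 1 log2 unit above the mean at 30% oxygen both early and late at 0% oxygen, and when the early and late means differed by less than 0.6 log2 units. Early means 0.4 volume changes, that is, exchanges of the reactor content. Late is the mean of the 8 libraries at 4 and 5 volume changes. The largest of the 3 means also had to reach 10 CPM, and the first and last 20 such features of each chromosome were left out.

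All samples were the wild-type strain CBS7435, grown on limiting glucose at 25 °C and pH 5.5 and at 1 dilution rate, in 4 groups of 4 biological replicates. The sample labels give 30% oxygen at 5 volume changes for one group, and 0% oxygen at 0.4, 4 and 5 volume changes for the others. In the treatment protocol these points are instead 66 h into the chemostat with 21% oxygen in the inlet air, and then 5, 50 and 70 h at 8%. The groups are named here as the sample labels name them. The labels do not say whether a replicate number marks the same reactor at each point, and p-values measure the spread between these libraries. Oxygen supply and time in the reactor changed together between 30% oxygen and the other groups, so their effects cannot be told apart. One library stood apart: the 153 nuclear features whose identifiers end in r held 0.854% of all estimated counts in replicate 4 at 5 volume changes, against 0.014% to 0.0381% in the other 15. The data pair no identifier with a gene name. The reference table (assembly ASM2700v1, 5040 genes) is that of another strain with other identifiers, and 0 of 5564 identifiers matched it. So neither the strain nor the pathways of the members could be checked against known genes.

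As background, K. phaffii respires in glucose-limited culture with ample oxygen and ferments little. When oxygen becomes limiting, yeasts are known to turn to fermentation. They are also known to raise genes of the steps that consume oxygen, among them sterol, unsaturated fatty acid and heme synthesis. Some such responses are transient and others last as long as the shortage, and the members here were chosen for the lasting pattern. Which members belong to which pathway is not given in the sources used here.

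Of 5041 features that passed the level and chromosome-end conditions, 175 (3.47%) were at least 1 log2 unit higher at 0.4 volume changes than at 30% oxygen. Late at 0% oxygen, 97 of those 175 were under that bound and 78 were not. Among the 78, 16 had fallen by at least 0.6 log2 units since 0.4 volume changes and 6 had risen by as much, which leaves the 56 members, 32% of the early risers. The mirror pattern, at least 1 log2 unit lower early and late with less than 0.6 between, was met by 178 features. Both counts are on CPM without further scaling, where the median early log2 ratio of the 4985 features that were not members was -0.11. Another 4 features met the values inside the chromosome ends, and 3 met them under 10 CPM.

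**Figure D1:**
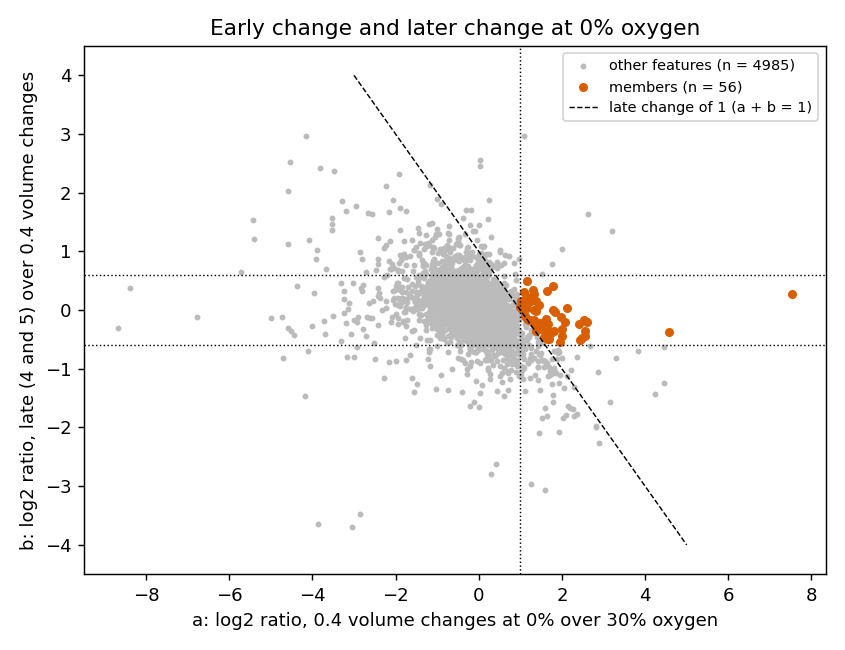
Each point is 1 of 5041 nuclear features, with the log2 ratio of 0.4 volume changes at 0% over 30% oxygen on the x axis and the log2 ratio of the late mean over 0.4 volume changes on the y axis. The 56 members (orange) lie right of the dotted vertical line at 1, between the dotted lines at 0.6 and -0.6 and above the dashed line of a late change of 1; 2 members stand far to the right of the others.

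Values at the edges of the rule show how it cuts a continuous spread. The member closest to the early bound stood at 217 CPM at 30% oxygen and 436 CPM at 0.4 volume changes, a log2 ratio of 1.002. The feature just outside went from 5.12 to 11.1 CPM, a log2 ratio of 0.986. As in the rule, these ratios have 1 added to each mean, which lowers the ratio most at low CPM. At the late bound, the closest member had a log2 ratio of 1.004 and the nearest feature outside 0.995. The lowest later change of a member, from 0.4 volume changes to the late mean, was -0.545 log2 units, and the nearest feature left out had -0.612. The highest was 0.495 inside, against 0.613 outside.

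The members differed widely in abundance. At 30% oxygen their means ran from 2.28 to 6910 CPM, with a median of 85 CPM. Over the 12 libraries at 0% oxygen they ran from 26.8 to 20800 CPM, with a median of 301 CPM. At 0% oxygen, 14 members reached 1000 CPM, 48 reached 100 CPM and 54 reached 50 CPM. Since the rule chose these values, they describe the members and test nothing. Every member had all 12 libraries at 0% oxygen above all 4 at 30% oxygen, a pattern held by 8.25% of the 5041 features. The gap between the groups was at least 2-fold, from the highest library at 30% to the lowest at 0% oxygen, for 21 members. It was smallest, at 1.11-fold, for a feature of 972 nt on chromosome 1, which averaged 155 ± 42.8 CPM at 30% oxygen and 309 ± 53.3 CPM at 5 volume changes (SD, n = 4).

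**Figure D2:**
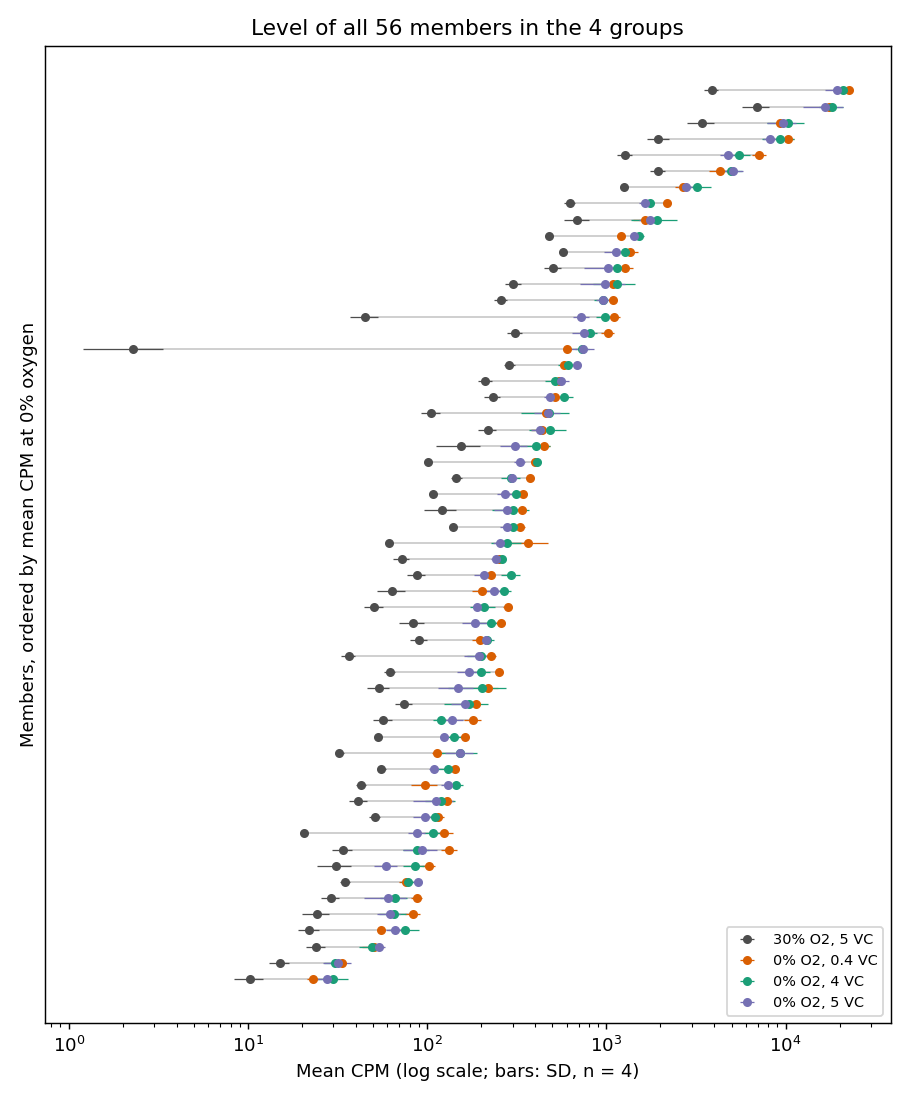
Mean CPM (log axis) of each of the 56 members in the 4 groups, 1 line per member, ordered by the mean at 0% oxygen, with bars for the SD of 4 libraries. The points at 30% oxygen (grey) lie left of all 3 points at 0% oxygen in each line, and the 3 points at 0% oxygen lie close together.

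As a group the members took 2.75 ± 0.226% of nuclear counts at 30% oxygen. At 0% oxygen they took 9.53 ± 0.279%, 9.31 ± 0.822% and 8.55 ± 0.889% (SD, n = 4) at 0.4, 4 and 5 volume changes, which is 3.47, 3.38 and 3.11 times as much. Single libraries ranged from 2.41% to 2.89% at 30% oxygen and from 7.84% to 10.5% at 0% oxygen, without overlap. The 5 most abundant members made up 63.2% of the member counts at 30% and 69% at 0% oxygen. The other 51 members went from 1.01 ± 0.0376% of nuclear counts to 2.87 ± 0.0583%, 2.92 ± 0.168% and 2.71 ± 0.0589%. On deposited TPM values, which are scaled by length, the median rank of the members among 5362 nuclear features moved from 2162.5 at 30% oxygen to 540.5, 534 and 608.5.

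PP7435_Chr4-0952.t01, a feature of chromosome 4 with 1023 nt of coding sequence, was the most abundant member at 0% oxygen. It stood at 3420, 3810, 3969 and 4244 CPM in replicates 1 to 4 at 30% oxygen. At 0.4 volume changes it reached 21105, 22793, 22598 and 23436 CPM. At 4 volume changes the values were 19377, 20606, 20808 and 22439 CPM, and at 5 volume changes 17438, 23081, 17783 and 18681 CPM. The lowest of the 12 libraries at 0% oxygen was 4.11 times the highest at 30% oxygen, and the 3 groups at 0% oxygen overlapped each other. By mean TPM it ranked 27 at 30% oxygen, and 6, 3 and 4 at 0.4, 4 and 5 volume changes.

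PP7435_Chr3-0552.t01, on chromosome 3 (1038 nt), was the next most abundant and was already high at 30% oxygen. Its values there were 5206, 7543, 7049 and 7853 CPM, with replicate 1 the lowest. They were 17005, 16371, 19218 and 16918 CPM at 0.4 volume changes. At 4 volume changes they were 14825, 21130, 17007 and 19267 CPM, and at 5 volume changes 13305, 22217, 17443 and 13595 CPM. Replicate 2 was the highest in both late groups, and the spread within those groups exceeded the differences among the 3 means at 0% oxygen. Its mean TPM rank was 12 at 30% oxygen and 7, 4 and 5 at 0% oxygen. Next in abundance were features of 1311 and 1683 nt on chromosome 3 and of 1083 nt on chromosome 2, with early rises of 2.75-, 5.29- and 5.63-fold in mean CPM with 1 added.

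The rises were mostly moderate. The median early rise was 2.98-fold and the median late rise 2.63-fold, both in mean CPM with 1 added. Late log2 ratios were under 1.5 for 33 members, between 1.5 and 2 for 13, and between 2.01 and 2.41 for 8. Only 2 members went beyond 3 log2 units.

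PP7435_Chr3-0810.t01, on chromosome 3 (2019 nt), had the largest rise. It was low at 30% oxygen, with 3.71, 1.95, 1.15 and 2.3 CPM. It then stood at 633, 593, 574 and 615 CPM at 0.4 volume changes. It held 646, 737, 807 and 730 CPM at 4 volume changes, and 663, 821, 842 and 622 CPM at 5. Its late log2 ratio was 7.81 with 1 added, which lowers the ratio at so low a level at 30% oxygen. In edgeR its log2 fold changes over 30% oxygen were 8.38 at 4 and 8.37 at 5 volume changes. Its mean TPM rank moved from 5354 of 5362 to 658, 552 and 564. Between 5 and 4 volume changes its log2 fold change was -0.01 ± 0.18 (SE), with an adjusted p of 0.988 in edgeR's quasi-likelihood test.

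PP7435_Chr2-0070.t01, on chromosome 2 (1413 nt), came next with a late log2 ratio of 4.22. Its values were 47.2, 38.5, 55.5 and 38.7 CPM at 30% oxygen and 1117, 1201, 1100 and 997 CPM at 0.4 volume changes. They were 1132, 1031, 896 and 888 CPM at 4 volume changes, and 756, 793, 732 and 615 CPM at 5. All 4 libraries at 5 volume changes lay below all 4 at 4 volume changes. The log2 fold change between those points was -0.48 ± 0.14 (SE), with an unadjusted p of 0.0031 and an adjusted p of 0.141 in edgeR, and an adjusted p of 0.0363 in DESeq2. The next identifier down, an 834 nt feature, is also a member, and it averaged 30.9, 102, 85.1 and 59.2 CPM in the 4 groups in the same order.

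**Figure D3:**
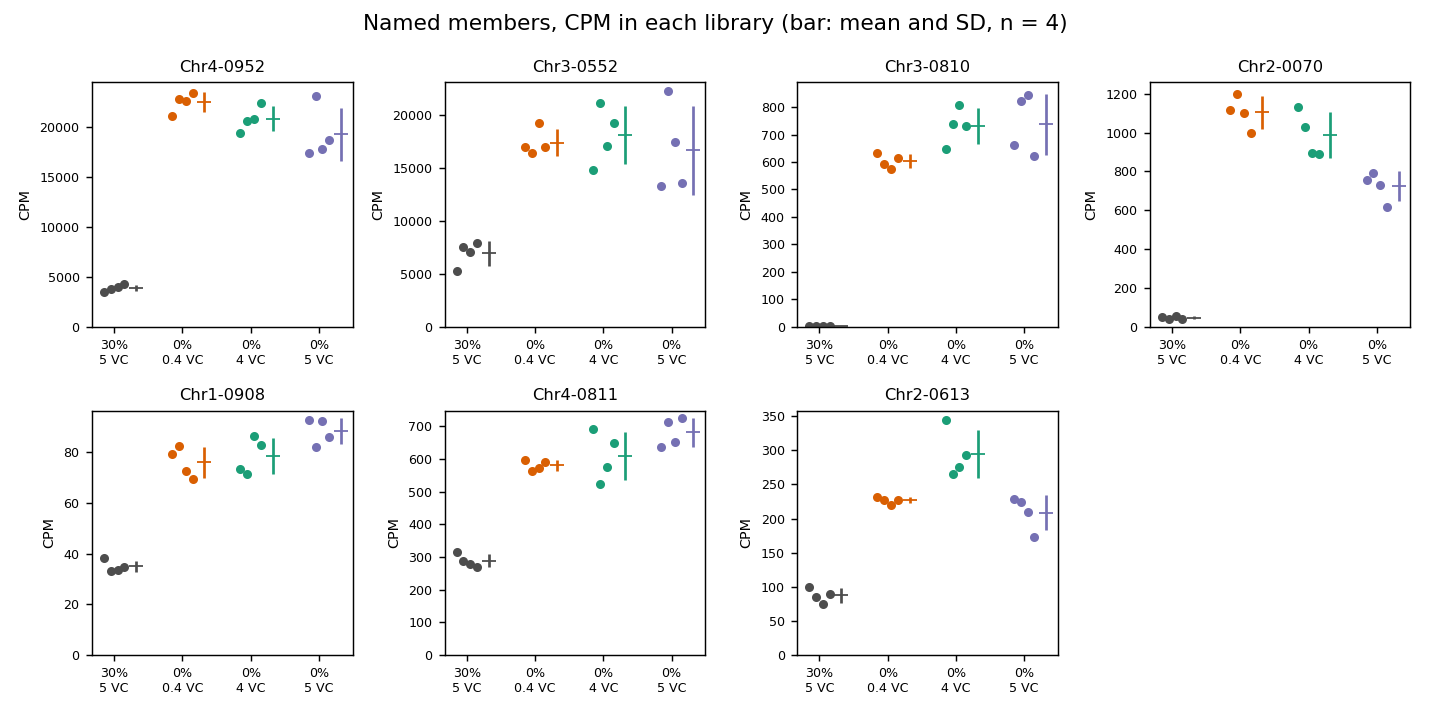
CPM of the 7 members named in the text in each library, with replicates 1 to 4 from left to right in each group and a bar for the mean and SD of 4 libraries. In every panel the 4 points at 30% oxygen (grey) lie below all 12 points at 0% oxygen. In the panels of Chr2-0070 and Chr2-0613 the 4 points at 5 volume changes also lie below the 4 at 4 volume changes.

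In each library at 0% oxygen the members as a set stood above their level at 30% oxygen. Each of these libraries entered the means of the rule, so the ratios describe the members and test nothing. The median log2 ratio of the 56 members to their own mean at 30% oxygen was between 1.49 and 1.58 in the 4 libraries at 0.4 volume changes, between 1.39 and 1.60 at 4, and between 1.34 and 1.38 at 5. In single libraries, 51 to 53 members were at least 1 log2 unit up at 0.4 volume changes, 49 to 52 at 4, and 45 to 49 at 5. The 4 libraries at 30% oxygen had medians from -0.04 to 0.04. Within groups the members' coefficient of variation had a median of 10.7% at 30% oxygen and of 7.23%, 13.3% and 12.9% at 0.4, 4 and 5 volume changes. Over 5033 features of at least the members' lowest level, these medians were 9.9%, 8.1%, 15.5% and 12%.

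**Figure D4:**
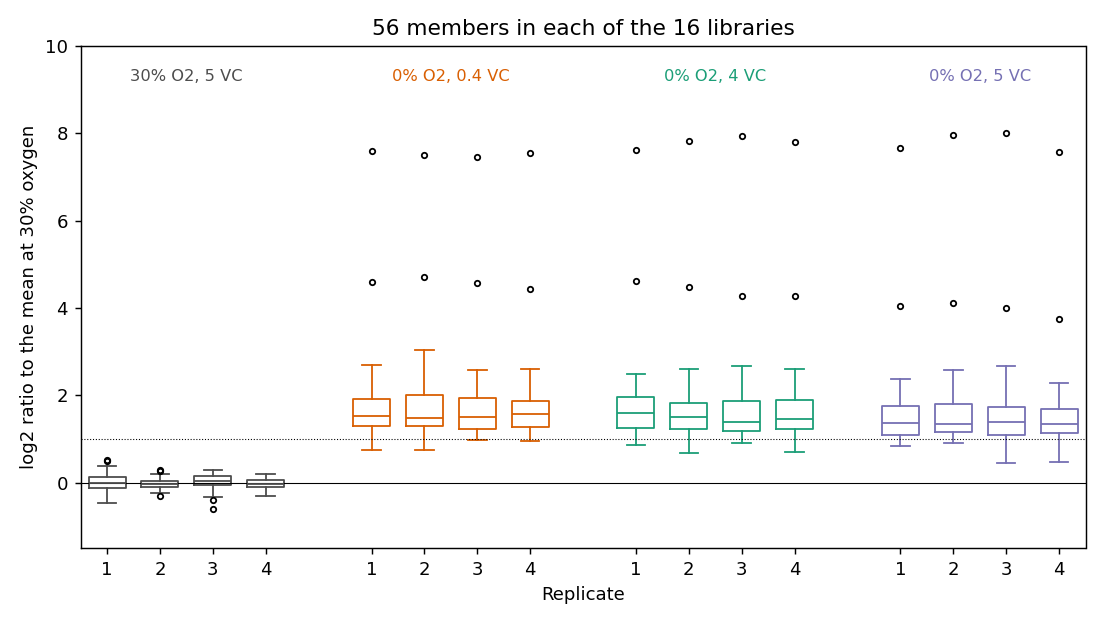
Box plots of the log2 ratio of the 56 members to their mean at 30% oxygen in each of the 16 libraries (line: median; box: quartiles; whiskers: up to 1.5 box lengths; circles: members beyond them). Boxes at 30% oxygen centre on 0 and the 12 at 0% oxygen on 1.34 to 1.60, and the 2 circles far above are PP7435_Chr3-0810.t01 and PP7435_Chr2-0070.t01.

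Fits across all 5452 tested features, in edgeR's quasi-likelihood test with Benjamini-Hochberg adjustment, gave the sizes with their errors. All 56 members were called higher than at 30% oxygen at an adjusted p under 0.05 at 0.4, 4 and 5 volume changes, where 23.8%, 24.6% and 23.3% of the tested features were. These comparisons share the libraries at 30% oxygen and were used by the rule, so nothing is read from these calls. With TMM scaling, the median log2 fold changes of the members were 1.72, 1.52 and 1.39, against 0.01, 0 and 0.02 for all tested features. Standard errors of the members ran from 0.07 to 0.25.

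The rule also bounded the change between 0.4 volume changes and the late mean. Within that bound, 36 members had a lower late mean and 20 a higher one. For 4 against 0.4 volume changes, edgeR called 11 members lower and 5 higher, where 18% and 16.8% of all tested features were called. For 5 against 0.4 volume changes it called 25 lower and 1 higher, against 15.1% and 13.7% of all. The bound itself was applied to these libraries, so these counts are a description. Without replicate 2 at 4 volume changes, 18 members were called lower at 4 volume changes, with 19.5% of all tested features. Without replicate 4 at 0.4 or replicate 3 at 4 volume changes, 3 were called higher, with 13.5% and 14.8% of all. On deposited TPM values limma called 5 members lower at 4 volume changes, where the share over all tested features was also lower, at 11.1%. Without replicate 4 at 5 volume changes, 23 members were called lower and 2 higher at 5 against 0.4, with 15.3% and 13.3% of all tested features.

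The comparison of 5 with 4 volume changes asks whether the level still moved late, and the rule did not use this difference. Most members had slightly lower values at 5 volume changes: 47 of 56 had a log2 fold change below 0, with a median of -0.15, against 50.1% and a median of 0 over all tested features. The values ran from -0.55 to 0.19, with a median standard error of 0.13. In edgeR, 1 member was called lower and 0 higher, where 0.183% and 0.459% of tested features were called. At an unadjusted p under 0.05, 13 members were lower and 0 higher, against 5.83% and 6.42% of all. DESeq2, which made more calls over all tested features (0.807% lower and 1.27% higher), called 3 members lower and 0 higher. Without replicate 4 at 5 volume changes, 46 members had a log2 fold change below 0 and the median was -0.13. The 95% interval of every member's log2 fold change lay between -1 and 1.

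PP7435_Chr2-0613.t01, on chromosome 2 (2037 nt), was the member called. Its values were 100, 85.2, 74.5 and 89.3 CPM at 30% oxygen and 231, 227, 220 and 228 CPM at 0.4 volume changes. It rose to 345, 265, 276 and 293 CPM at 4 volume changes and came back to 229, 224, 210 and 172 CPM at 5. The 4 libraries at 5 volume changes lay below the 4 at 4 volume changes, with a log2 fold change of -0.51 ± 0.10 (SE) and an adjusted p of 0.0161 in edgeR. The lowest of these values, 172 CPM, came from replicate 4, the library with the high share of r features; the part of that share in the result was not tested. The call was lost without replicate 4 (log2 fold change of -0.44, adjusted p = 0.0567 in edgeR) or replicate 3 (adjusted p = 0.0517 in edgeR) at 5 volume changes, on deposited TPM values (adjusted p = 0.0676 in limma) and in a fit of these 8 libraries alone (adjusted p = 0.221 in edgeR), where 0 features of any kind were called.

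The members with the smallest p among those that were higher at 5 volume changes did not pass. PP7435_Chr1-0908.t01, on chromosome 1 (1674 nt), stood at 73.6, 71.6, 86.4 and 83.0 CPM at 4 volume changes and 92.8, 82.4, 92.5 and 86.3 CPM at 5. The groups overlapped, with a log2 fold change of 0.15 ± 0.08 (SE) and an adjusted p of 0.461 in edgeR. PP7435_Chr4-0811.t01, on chromosome 4 (1203 nt), stood at 691, 524, 575 and 648 CPM at 4 volume changes and 636, 713, 653 and 725 CPM at 5. Its log2 fold change was 0.15 ± 0.08 (SE), with an adjusted p of 0.509 in edgeR. At 30% oxygen these 2 members averaged 34.9 ± 2.28 and 288 ± 20.4 CPM (SD, n = 4).

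For most members, single libraries at 5 volume changes overlapped those at 4 volume changes in CPM. For 4 members all libraries at 5 volume changes lay below all at 4 volume changes, for 0 members above, and for 52 the groups overlapped; over 5041 features, 1.27% lay wholly below and 2.4% wholly above. With TMM scaling, 49, 33, 41 and 40 members were below their mean at 4 volume changes in replicates 1 to 4 at 5 volume changes. Replicate 2 at 4 volume changes held the largest member share, 10.5% of nuclear counts, and replicate 2 at 5 volume changes the next largest of the late libraries, 9.85%. Without the former, 38 members had a log2 fold change below 0 and the median was -0.085. Abundance moved with the direction too: members lay below 0 in 5 of 8 cases under 100 CPM at 0% oxygen, in 29 of 34 from 100 to 1000 CPM and in 13 of 14 above, while other features lay below 0 in 45.6%, 55% and 55.8% of cases.

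**Figure D5:**
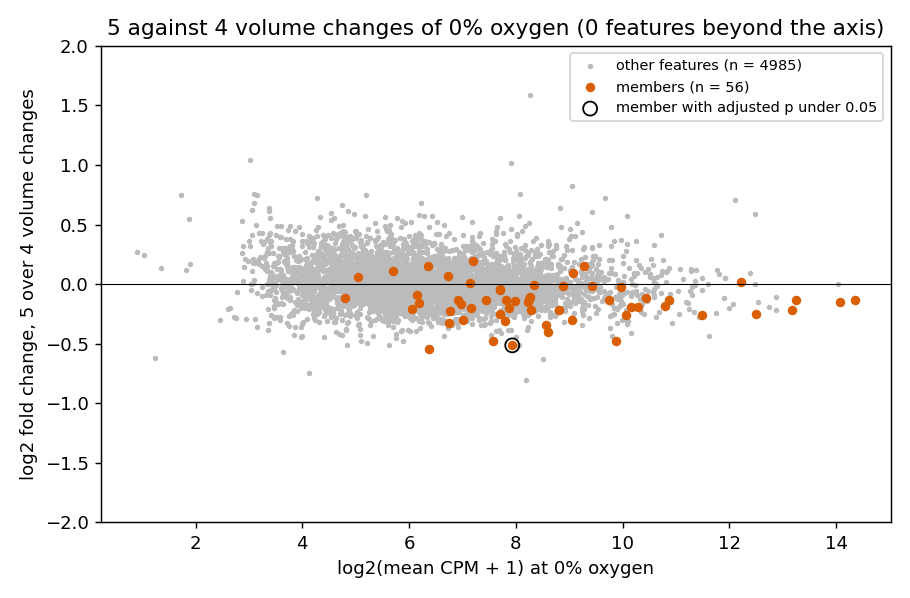
Log2 fold change of 5 over 4 volume changes at 0% oxygen (y axis, edgeR with TMM factors) against log2 of the mean CPM at 0% oxygen with 1 added (x axis), for the 56 members (orange) and 4985 other nuclear features (grey). The members lie between -0.55 and 0.19, 47 of them below the line at 0, and the circled point is PP7435_Chr2-0613.t01.

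The members were spread over all 4 chromosomes. Chromosomes 1 to 4 held 14, 14, 17 and 11 of them, or 0.901%, 1.09%, 1.40% and 1.11% of their features that passed the level and chromosome-end conditions, against 1.11% over all. Their median coding length was 1194 nt, the same as over the 5041 features, with quartiles of 883.5 and 1676.25 nt against 753 and 1809 nt. The shortest was 252 nt and the longest 2970 nt, and 4 were under 500 nt. In the 16 libraries 0 members had a fractional estimated count (beyond a tolerance of 1e-06), whereas 1.11% of the 5041 features had one. Estimated counts become fractional where reads are shared between features. The fewest estimated counts of a member in a library were 42 at 30% oxygen and 613 at 0% oxygen.

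Several members were neighbours in the order of the tables. There were 4 pairs of members in adjacent rows of nuclear features ending in t, so 8 members had a member beside them and 48 had none. Rows next to a member were counted on each side of each member, so every pair counts from both sides. Of 108 such rows that passed the level, 8 (7.41%) were members. Among the 5041 features that passed the level and chromosome-end conditions, 1.11% were. This share was not tested. One pair joins PP7435_Chr4-0952.t01 with a 777 nt feature that averaged 120, 337, 301 and 280 CPM in the 4 groups, and another joins PP7435_Chr2-0070.t01 with the 834 nt feature above. In both pairs the late ratios were unequal, at 5.19- against 2.40-fold and at 18.6- against 2.29-fold in mean CPM with 1 added. PP7435_Chr2-0613.t01 is paired with a 600 nt feature, with late ratios of 2.86- and 2.23-fold. The last pair, on chromosome 3, holds features of 2271 and 753 nt with late ratios of 2.71- and 2.76-fold. On chromosome 4, 3 members of 1902, 1206 and 1560 nt stood with 1 other such row between each. The libraries were directional per the labels' protocols, but the strand setting of the counting is not given, so reads of overlapping neighbours cannot be told apart here.

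Among the 99 features next to a member that were not members themselves, the median early log2 ratio was 0.08 and 3 (3.03%) reached 1. Among all 4985 features that passed and were not members, neighbours of members among them, the median was -0.11 and 119 (2.39%) reached 1. In the rows 2 and 3 places away, the early medians lay between -0.21 and -0.14. Median late log2 ratios were closer together, at 0.05 for the 99 neighbours and -0.03 for the 4985 features. They lay between -0.11 and 0.02 in the rows 2 and 3 places away. These differences were not tested.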

How the data were processed

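RNA-seq tables of 16 chemostat libraries were used. Each lists 5564 features with an estimated count, a TPM value and 2 lengths, per the file headers. The estimated counts were deposited without normalisation. The deposited TPM values are those counts per effective length, scaled by the authors to a fixed sum. Tools named in the submitters' processing notes, with no role, are kallisto 0.44.0, Bowtie2 2.3.4.1, DESeq2 1.36.0 (under R 4.2.0), SAMtools 1.9 and cutadapt 1.18. No source used here gives the build, annotation or strand setting. Library totals ran from 23085262 to 40699763 estimated counts, and replicates of a group differed beyond sampling noise (lowest chi-square per df 19.1).

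The members and lists were chosen with earlier results of these data known. CPM used the summed nuclear t counts of a library. For tests, estimated counts were rounded, 112 low features were removed with filterByExpr, and a quasi-likelihood model with TMM factors and a term for each of the 4 groups was fitted over all 16 libraries in edgeR 4.0.16 (R 4.3.3). The scripts were tested on simulated data. P-values were adjusted over all 5452 features. Standard errors came from the F statistic, and 95% intervals are 1.96 standard errors on either side.

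At most 2 identifiers per direction and comparison were named: the 2 most abundant members at 0% oxygen, the 2 with the largest late ratio, and for 5 against 4 volume changes the called members, or else those with the smallest p, with at least 50 CPM. Members described by length alone, and the counts of log2 fold changes below 0 with their medians under each alternative, were chosen after seeing the data. Pathway lists could not be matched. Alternatives were limma 3.58.1 on log2(TPM + 1), DESeq2 1.42.0, upper-quartile or RLE factors, no filter, a replicate block, the 2 groups alone, other forms of the rule, and leaving out each library.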

Additional observations from a re-analysis of the deposited data

Results flagged for a closer look

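The 7 named members, the summed share of the members and the share of nuclear r features were screened for a library apart from its group, which makes 36 sets of 4 libraries; 3 sets had one, and chance flags about 1 in 20. The members took 2.41% of nuclear counts in replicate 1 at 30% oxygen, against 2.82% to 2.89% in the other 3. The same library had 0.028% of its counts in nuclear r features, against 0.0178% to 0.0187% in the other 3. Replicate 4 at 5 volume changes had 0.854%, against 0.0153% to 0.0381%. Without replicate 1 at 30% oxygen 58 features met the rule, 54 of them among the 56.

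Between sampling points at 0% oxygen, PP7435_Chr2-0613.t01 was higher at 4 than at 0.4 volume changes, with a log2 fold change of 0.30 ± 0.09 (SE, adjusted p = 0.0204 in edgeR), and lower at 5 than at 4, with -0.51 ± 0.10 (adjusted p = 0.0161 in edgeR). PP7435_Chr2-0070.t01 was lower at 5 than at 0.4 volume changes, with -0.70 ± 0.14 (adjusted p = 0.000892 in edgeR). The rule bounded the change from 0.4 volume changes to the mean of both late points, which was -0.37 for PP7435_Chr2-0070.t01, and not the change to 5 volume changes alone.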

How the results depend on the processing

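The number of members stayed between 49 and 63 in 11 other forms of the rule. It was 63 with TMM-normalised CPM (55 of the 56 among them), 58 with deposited TPM (52), 49 with 5 added in place of 1 (49), and 53 with 5 volume changes alone as the late group (48). Leaving out 1 library or 1 replicate number gave 52 to 58, with at least 51 of the 56 among them. All 56 were called higher than at 30% oxygen under every alternative run, where 13.7% to 28.7% of all tested features were. The rule used these comparisons, so nothing is read from these calls. On deposited TPM the members' share was 1.83% at 30% oxygen and 6.31%, 6.31% and 5.52% at 0.4, 4 and 5 volume changes.

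For 5 against 4 volume changes, members called lower numbered 3 with DESeq2, 0 with limma on TPM, 0 with these 8 libraries alone and 0 to 1 without single libraries, where 0.807%, 0.0734%, 0% and 0.0183% to 0.183% of all tested features were called lower. Log2 fold changes below 0 numbered 45 to 51 over the other scalings and tests. The 45 came with upper-quartile factors and the 51 with limma on TPM, where 48.1% and 62.5% of all tested features were below 0. With RLE or upper-quartile factors, DESeq2 and limma, 46 to 47 members lay below the median of all tested features. Without single libraries, 38 to 49 members were below 0 (medians from -0.20 to -0.085). For 4 against 0.4, 5 members were called lower on TPM (11.1% of all), and 9 to 18 lower and 3 to 5 higher without single libraries (15.5% to 19.5% and 13.5% to 16.8% of all). For 5 against 0.4, 0 were called higher with RLE factors, 2 with upper-quartile factors, 0 with the 2 groups alone and 0 to 2 without single libraries (13.6%, 17.1%, 15% and 10.6% to 13.3% of all). The causes were not tested. TPM moved the median log2 fold change of all features to -0.127 for 0.4 volume changes against 30% oxygen and to 0.118 for 4 against 0.4, and the higher share of all calls from 49.7% to 31.4% and from 48.2% to 66.7%.

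Same-numbered libraries did not deviate together throughout (24 correlations from -0.58 to 0.64, 11 over 0.1; 4 of 16 libraries correlated best with their own number); whether a number marks the same reactor was not settled. With the replicate block, 1 member was called lower and 0 higher for 5 against 4 (0.147% and 0.385% of all tested features). The counts were 14 and 4 for 4 against 0.4 (18% and 15.8%), and 27 and 1 for 5 against 0.4 volume changes (15.2% and 12.9%). All 56 were called higher than at 30% oxygen at 0.4, 4 and 5 volume changes, with 23.6%, 24.3% and 23.1% of all tested features.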
